A study of Mus musculus with 4 samples.

Results

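The small leucine-rich proteoglycans are a family of secreted matrix proteins, and 10 of its genes were taken by symbol from the 21881 genes of the deposited table: Fmod, Dcn, Lum, Bgn, Ogn, Aspn, Omd, Prelp, Kera and Epyc. Messenger RNA had been sequenced from 4 cultures of immortalised, monoclonal mesenchymal stem cell lines of C57BL/6 mice, cells of the adult bone marrow with a fibroblast character. Clone 12 and clone 6 had each received a puromycin-resistance retrovirus, pMMP-puro, that carried either Flag-HA-tagged NR6A1 (2 libraries, 1 per clone) or no insert (vector, 2 libraries, 1 per clone). All 4 cultures carried Dicer f/f, an allele flanked by recombination sites that the labels call wild type, and were grown in serum. NR6A1 is a nuclear receptor with no known ligand, active in embryos and germ cells and mostly described as a repressor, here made from a retrovirus in adult cells. Each line is 1 clone and each library 1 culture, so a value that differs between clone 12 and clone 6 describes those lines. The members were chosen by family and with their FPKM by clone and by virus in all 4 libraries already known, so these values are given as a description and without a test.

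Proteins of this family share a core of leucine-rich repeats that curves around collagen fibrils and sets their diameter and spacing. Decorin, biglycan and their relative asporin form the first class, in which decorin and biglycan carry chondroitin or dermatan sulfate chains. Fibromodulin, lumican, osteomodulin, keratocan and PRELP form the second, several of which carry keratan sulfate, and osteoglycin and epiphycan belong to the third. In bone and its marrow the family is known for binding TGF-beta and BMP signals and for accompanying matrix that mineralises.

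Values are FPKM, fragments per kilobase of transcript and per 1e6 mapped fragments, so levels of different genes compare per length. Steps between the lowest values gave an estimated depth of 20.5 to 24.2 M reads a library (M, 1e6 reads). At that depth 1 read on a transcript of 2000 bases stands for 0.0231 to 0.0274 FPKM. Nr6a1 was at 598 and 783 FPKM in the NR6A1 libraries of clone 12 and clone 6, against 2.8 and 4.18 FPKM with vector in clone 12 and clone 6. Of 12 markers of fibroblasts and mesenchymal stem cells, 10 were at 1 FPKM or more in every library, among them Vim, Col1a1 and Col1a2, while Thy1 and Lepr stayed below 1 FPKM throughout. Summed markers of blood cells reached at most 3.07 FPKM and those of endothelium at most 0.214 FPKM.

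The family divided into 5 genes that the cells expressed and 5 that they hardly did. Bgn, Fmod, Ogn, Omd and Aspn averaged 1 FPKM or more and entered the comparisons, and Prelp, Dcn, Epyc, Lum and Kera did not. The threshold fell in a gap, with Aspn just inside at a mean of 7.42 FPKM and Prelp just outside at 0.191 FPKM. Prelp, whose protein anchors basement membranes to connective tissue, was at 0.205 and 0.251 FPKM in the NR6A1 libraries of clone 12 and clone 6, against 0.0639 and 0.243 FPKM with vector. Dcn, which encodes decorin, the proteoglycan that decorates collagen fibrils, was listed at 0 in both NR6A1 libraries, against 0.079 and 0.431 FPKM with vector in clone 12 and clone 6. On a transcript of 2000 bases the vector values of Dcn would stand for 3.25 and 18.7 reads, and no fold is given against a group at 0. Lum, which encodes lumican, was above 0 in 1 library, the NR6A1 library of clone 6, at 0.00229 FPKM, and Epyc in 1, the vector library of clone 6, at 0.00284 FPKM, both below the value of 1 read. Kera, the keratan sulfate proteoglycan gene of the cornea, was listed at 0 in every library. A gene listed at 0 may lack the transcript or may have failed its estimate, and these values do not tell which.

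**Figure D1:**
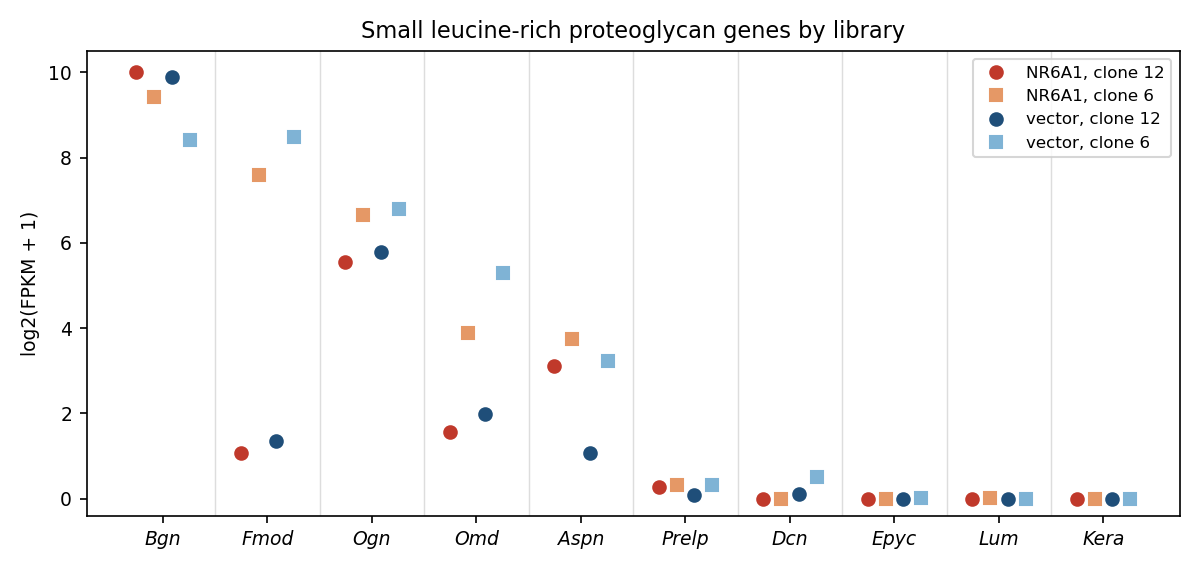
Level of each of the 10 genes on the log2(FPKM + 1) scale, 1 point per library, circles for clone 12 and squares for clone 6, red and orange for NR6A1, blue for vector. Bgn is highest in clone 12, Fmod differs by -6.53 (NR6A1) and -7.13 (vector) log2 units between clone 12 and clone 6, and the 5 genes on the right lie at or near 0.

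The gene order on the chromosomes sets these levels side by side. In the RefSeq annotation of GRCm38.p6, a later assembly than the mm9 build of the files and used here for gene order, Dcn, Lum, Kera and Epyc follow each other with no other protein-coding gene between them. All 4 were below 1 FPKM in every library, with a highest value of 0.431 FPKM (Dcn, vector, clone 6). Ecm2, Aspn, Omd and Ogn form another row of neighbours, and there the levels differed: Ogn reached 110 FPKM, Omd 38 FPKM and Aspn 12.5 FPKM at most, while Ecm2, a relative with leucine-rich repeats, stayed at 0.277 to 0.633 FPKM. Optc, Prelp and Fmod also follow each other, and Optc, the opticin gene of the eye, ran from 0.214 to 0.432 FPKM beside an Fmod of up to 357 FPKM. The gene Cenpp, which encodes a kinetochore protein, overlaps Aspn, Omd and Ogn in that annotation, so reads could be shared among them where strand was not used. Cenpp was at 21.6 and 24.2 FPKM in the NR6A1 libraries of clone 12 and clone 6, against 26.9 and 32.3 FPKM with vector.

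Bgn encodes biglycan, the relative of decorin that binds collagen, BMPs and Toll-like receptors and is needed for normal bone mass in mice. It was the most abundant member in 3 of the 4 libraries, at 1027 and 679 FPKM in the NR6A1 libraries of clone 12 and clone 6, against 949 and 342 FPKM with vector in clone 12 and clone 6. The vector library of clone 6 was the lowest, and the groups overlapped, since clone 12 with vector lay above clone 6 with NR6A1. The mean was 853 ± 246 FPKM with NR6A1 and 645 ± 430 FPKM with vector (SD, n = 2 each). Among all genes of a library, Bgn ranked 63rd and 120th with NR6A1 in clone 12 and clone 6, and 72nd and 254th with vector. The FPKM ratio of NR6A1 to vector was 1.08 in clone 12 and 1.99 in clone 6, and the log2 change was 0.55 ± 0.23 (SE). Between the lines, Bgn was 1.51 times as high in clone 12 as in clone 6 with NR6A1 and 2.78 times with vector.

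Fmod encodes fibromodulin, a keratan sulfate proteoglycan of tendon and cartilage that guides the early assembly of collagen fibrils. It was at 1.1 and 193 FPKM in the NR6A1 libraries of clone 12 and clone 6, against 1.55 and 357 FPKM with vector in clone 12 and clone 6. Clone 6 was high and clone 12 low with either virus, and both lines had less Fmod with NR6A1, while the groups overlapped. In clone 12 Fmod lay near the filter threshold of 1 FPKM, so its direction and ratio there rest on low values. The FPKM ratio of NR6A1 to vector was 0.707 in clone 12 and 0.541 in clone 6, with a log2 change of -0.58 ± 0.17 (SE). The level in clone 12 was 0.00568 of that in clone 6 with NR6A1 and 0.00435 with vector, a log2 difference of -6.83 ± 0.17 (SE). By that difference Fmod ranked second from the most negative among the 11346 genes compared. In clone 6 with vector it was the 243rd most abundant gene and in clone 12 with vector the 10804th. In bulk RNA, fewer cells with the transcript and less transcript per cell cannot be told apart.

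Omd encodes osteomodulin, also called osteoadherin, a keratan sulfate proteoglycan made by osteoblasts that binds hydroxyapatite. It was at 1.97 and 13.8 FPKM in the NR6A1 libraries of clone 12 and clone 6, against 2.97 and 38 FPKM with vector in clone 12 and clone 6. As for Fmod, clone 6 was the higher line with both viruses, each line was lower with NR6A1, and the groups overlapped. The FPKM ratio of NR6A1 to vector was 0.664 in clone 12 and 0.363 in clone 6, and the log2 change was -0.91 ± 0.26 (SE). Clone 12 stood at 0.143 of clone 6 with NR6A1 and 0.0783 with vector, a log2 difference of -2.80 ± 0.26 (SE).

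Ogn encodes osteoglycin, or mimecan, a small proteoglycan of bone and vessel wall first described as an inducer of bone formation. It was at 45.6 and 99.6 FPKM in the NR6A1 libraries of clone 12 and clone 6, against 53.7 and 110 FPKM with vector in clone 12 and clone 6. The groups overlapped and the lines did not. The FPKM ratio of NR6A1 to vector was 0.849 in clone 12 and 0.902 in clone 6, with a log2 change of -0.19 ± 0.072 (SE), the smallest of the 5. Clone 12 stood at 0.457 of clone 6 with NR6A1 and 0.486 with vector.

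Aspn encodes asporin, which binds collagen and TGF-beta and is known for restraining TGF-beta signals in cartilage. It was at 7.69 and 12.5 FPKM in the NR6A1 libraries of clone 12 and clone 6, against 1.1 and 8.36 FPKM with vector in clone 12 and clone 6. Clone 12 with vector was the low library, and the groups overlapped, with clone 12 with NR6A1 just below clone 6 with vector. The FPKM ratio of NR6A1 to vector was 7.02 in clone 12 and 1.5 in clone 6, and the log2 change was 1.29 ± 0.40 (SE). Aspn was thus higher with NR6A1 where its neighbours Omd and Ogn were lower, in both clones. The difference between clones was -0.64 log2 units with NR6A1 and -2.16 with vector.

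The promoters of the 4 members with the largest log2 changes between viruses are shown because they set genes that were lower with NR6A1 (Fmod, Omd) beside genes that were higher (Bgn, Aspn). Each runs from 250 bases before to 50 after the RefSeq start of GRCm38.p6, all on the plus strand: Fmod at chr1:134037004-134037303, Omd at chr13:49582212-49582511, Bgn at chrX:73483351-73483650 and Aspn at chr13:49544193-49544492. Capitals mark AGGTCA on either strand, the core that NR6A1 is known to bind as a direct repeat without a spacer.
Fmod: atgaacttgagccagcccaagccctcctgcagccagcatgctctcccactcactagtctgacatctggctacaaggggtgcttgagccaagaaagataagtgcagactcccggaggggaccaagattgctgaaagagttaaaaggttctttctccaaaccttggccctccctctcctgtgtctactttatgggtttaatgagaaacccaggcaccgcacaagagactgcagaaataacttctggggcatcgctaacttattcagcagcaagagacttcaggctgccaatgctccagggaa
Omd: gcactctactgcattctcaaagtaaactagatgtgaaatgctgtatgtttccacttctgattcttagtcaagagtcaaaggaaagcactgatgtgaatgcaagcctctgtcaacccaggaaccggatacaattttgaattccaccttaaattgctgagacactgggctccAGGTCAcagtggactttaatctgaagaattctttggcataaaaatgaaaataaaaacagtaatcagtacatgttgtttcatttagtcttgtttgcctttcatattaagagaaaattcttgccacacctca
Bgn: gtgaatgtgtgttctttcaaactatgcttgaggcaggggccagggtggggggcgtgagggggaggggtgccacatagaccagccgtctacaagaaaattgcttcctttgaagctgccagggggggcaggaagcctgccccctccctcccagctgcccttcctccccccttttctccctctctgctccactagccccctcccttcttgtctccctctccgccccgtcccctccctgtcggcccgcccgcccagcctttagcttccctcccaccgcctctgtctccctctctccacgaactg
Aspn: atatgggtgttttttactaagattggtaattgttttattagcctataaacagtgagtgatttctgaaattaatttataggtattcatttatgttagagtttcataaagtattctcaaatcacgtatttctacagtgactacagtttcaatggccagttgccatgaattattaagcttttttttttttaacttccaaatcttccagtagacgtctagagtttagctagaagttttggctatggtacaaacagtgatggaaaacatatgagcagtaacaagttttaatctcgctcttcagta
RefSeq gave promoters for 8 of the 10 members (9 starts). Of these, Omd alone held AGGTCA, at position -80 from the start, a hexamer found in 16.3% of all 32851 promoters of this length. The longer TCAAGGTCA, which contains it, was in none of the 9 and in 0.423% of all promoters, and AGGTCA followed directly by itself was in none of the 9 and in 0.00609% of all. Bases G and C made up 63.7% of the Bgn promoter, 51% of that of Fmod, 37.7% of that of Omd and 31% of that of Aspn, against a mean of 53.8% over all promoters. A match of letters is a description of the window and not a binding site.

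Each of the 5 expressed members had 1 direction in both clones, as did 58.3% of all genes compared. Aspn and Bgn were higher with NR6A1 (2 of 5, against 28.9% of all genes) and Omd, Fmod and Ogn were lower (3 of 5, against 29.4%). Their median log2 change was -0.19, beside 0.00098 over all genes, and ran from -0.91 (Omd) to 1.29 (Aspn). The sizes differed between the lines: Bgn, Fmod and Omd differed more between viruses in clone 6 and Aspn more in clone 12, by 0.60 to 1.52 log2 units, while for Ogn the change in clone 12 minus that in clone 6 was -0.084. Whether the lines differ in this cannot be tested with 1 library for each line and virus. The log2(FPKM + 1) scale also understates changes of low values, such as those of Fmod and Omd in clone 12. As FPKM ratios of NR6A1 to vector, Fmod stood at 0.707 in clone 12 and 0.541 in clone 6. Over all genes, limma with clone as a block called 0.0353% at an adjusted p under 0.05. None of the 5 members was called, here or without short RNA genes (0.466% of all genes then), 3 had an unadjusted p under 0.05 (8.48% of all genes), and nothing is read from these counts since the members were chosen with this contrast in view. In fits on 3 libraries, which have no clone block, the change of Fmod was 2.98 with clone 6 vector left out and 2.68 with clone 12 NR6A1 left out. It was -3.85 with clone 6 NR6A1 left out and -4.15 with clone 12 vector left out. Omd and Ogn turned positive in the same fits as Fmod (Omd 0.74 and 0.25, Ogn 0.32 and 0.37), and Bgn turned to -0.18 with clone 6 vector left out. Such fits set libraries of different lines against each other.

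**Figure D2:**
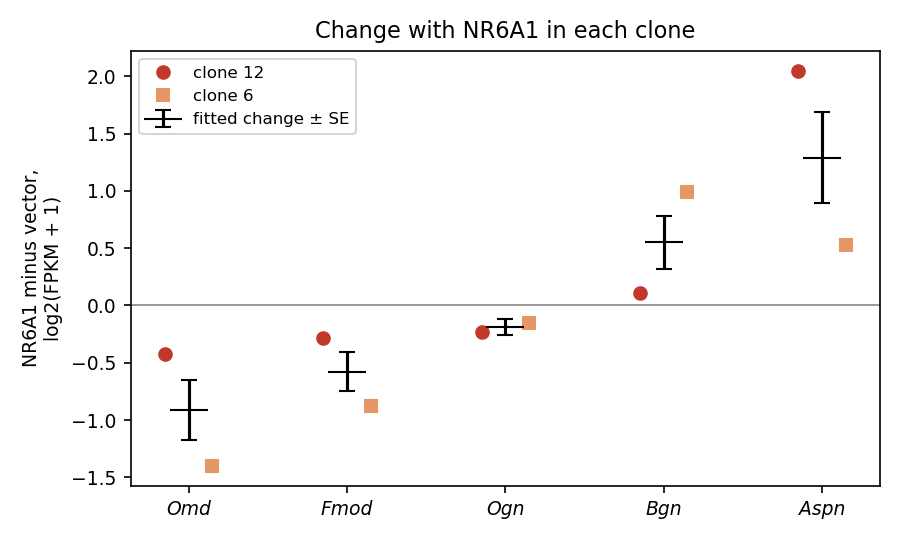
Change with NR6A1 (NR6A1 minus vector, log2(FPKM + 1)) of the 5 expressed genes, circles for clone 12, squares for clone 6, bars for the fitted change and its SE. Omd, Fmod and Ogn lie below 0 and Bgn and Aspn above 0 in both clones, with Aspn at 2.05 in clone 12 and 0.53 in clone 6.

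Between the lines the family's makeup differed more than its total. The 10 genes summed to 1084 and 998 FPKM in the NR6A1 libraries of clone 12 and clone 6, against 1009 and 856 FPKM with vector. In clone 12, Bgn made up 94.8% of that sum with NR6A1 and 94.1% with vector, and most of the rest was Ogn, at 4.2% and 5.32%. In clone 6 with NR6A1, Bgn made up 68%, Fmod 19.4% and Ogn 9.98%. In clone 6 with vector, Fmod made up 41.7%, Bgn 39.9%, Ogn 12.9% and Omd 4.43%. The ratio of Fmod to Bgn in clone 6 was 0.285 with NR6A1 and 1.05 with vector. In clone 12 that ratio was 0.00107 with NR6A1 and 0.00164 with vector.

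**Figure D3:**
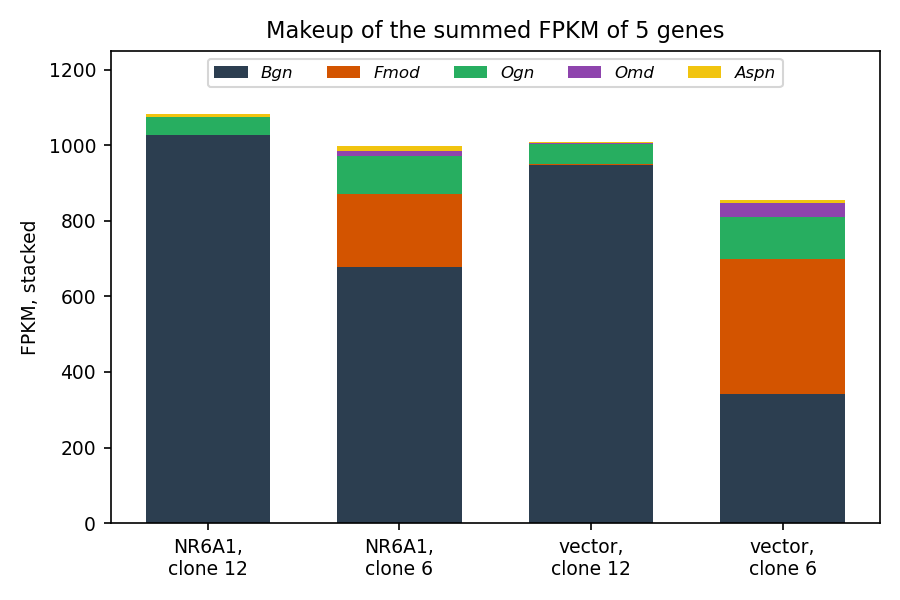
FPKM of the 5 expressed genes stacked for each library, NR6A1 left and vector right. Bgn fills nearly all of the bar in clone 12, at 1027 and 949 FPKM, and shares it with Fmod in clone 6, where Fmod is at 193 FPKM with NR6A1 and 357 with vector.

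Of the 5 expressed members, 4 were lower and 1, Bgn, was higher in clone 12 than in clone 6 with both viruses, against 35.9% of all genes lower and 43.9% higher. Fmod, Omd and Ogn were at least 2-fold lower in clone 12 with both viruses, as were 2.38% of all genes. In the limma fit 21.9% of all genes were called between the lines, and 3 of the 5 members (Fmod, Omd, Ogn), which is given beside that share and read no further. Without short RNA genes the fit called 31.3% of all genes and all 5 members, which is likewise read no further, since the members were chosen with these values known. With no filter on low values limma called no gene between the lines, over 17887 genes, with 5360 at an unadjusted p under 0.05. The gene patterns closest to Fmod over the 4 libraries, by Euclidean distance between centred log2 values among 9294 genes averaging 5 FPKM or more, were the small nucleolar RNAs Snord57 (0.533) and Snord11 (0.804), the microRNA genes Mir3068 (0.804) and Mir23b (1.07), and Sp7 (1.02). The 4 short RNA genes were listed at 0 in both libraries of clone 12, which may be a lack of transcript or a failed estimate. They and Sp7 passed the filter of 5 FPKM through clone 6 alone, so nothing is read from their nearness to Fmod. Short RNA genes as a class repeated less well: clone differences with the 2 viruses correlated with r = 0.628 over all genes and 0.874 without them.

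Sp7, the osterix transcription factor of osteoblasts, was at 0.294 and 50.6 FPKM in the NR6A1 libraries of clone 12 and clone 6, against 0.459 and 120 FPKM with vector. Of 8 osteoblast markers, 6 were lower and 1, Phex, was higher in clone 12 than in clone 6 with both viruses. Over all genes compared, which average 1 FPKM or more, 35.9% were lower and 43.9% higher. The marker list was not filtered so, and Dmp1, among the 6, stayed below 1 FPKM. For NR6A1, 5 of the 8 were lower and none higher in both clones, against 29.4% and 28.9% of all genes. Dmp1, a bone matrix gene, was higher in clone 6 at 0.776 FPKM with NR6A1 against 0.593 FPKM with vector. The 8 genes summed to 26.8 and 318 FPKM with NR6A1 in clone 12 and clone 6, against 40 and 741 FPKM with vector, and Alpl made up most of the sum in clone 6. Of the 8, Sost was at 0 in every library, Ibsp, the bone sialoprotein gene, was at 0 in both libraries of clone 12, and 2 were at 1 FPKM or more in all 4. The bone alkaline phosphatase gene Alpl stood at 6.85 and 228 FPKM with NR6A1 in clone 12 and clone 6, against 18.2 and 509 FPKM with vector. Runx2, the early transcription factor of the lineage, differed less, at 17.4 and 23.4 FPKM with NR6A1 against 17.9 and 32.2 FPKM with vector. Phex was at 2.03 and 0.456 FPKM with NR6A1 against 2.96 and 0.631 FPKM with vector.

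The adipocyte list had the same order of libraries. Its 6 genes summed to 100 and 162 FPKM with NR6A1 in clone 12 and clone 6, against 109 and 326 FPKM with vector. Fabp4, a fatty acid carrier gene, was at 73.3 and 129 FPKM with NR6A1 against 79.4 and 285 FPKM with vector, and Pparg, the transcription factor of fat cells, at 27 and 31.8 against 29.6 and 40.4 FPKM. The other 4, among them Adipoq and Plin1, stayed below 1 FPKM, and Lep was at 0 in every library. The part of osteoblast-like or adipocyte-like cells in the values of Fmod and Omd was not tested.

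**Figure D4:**
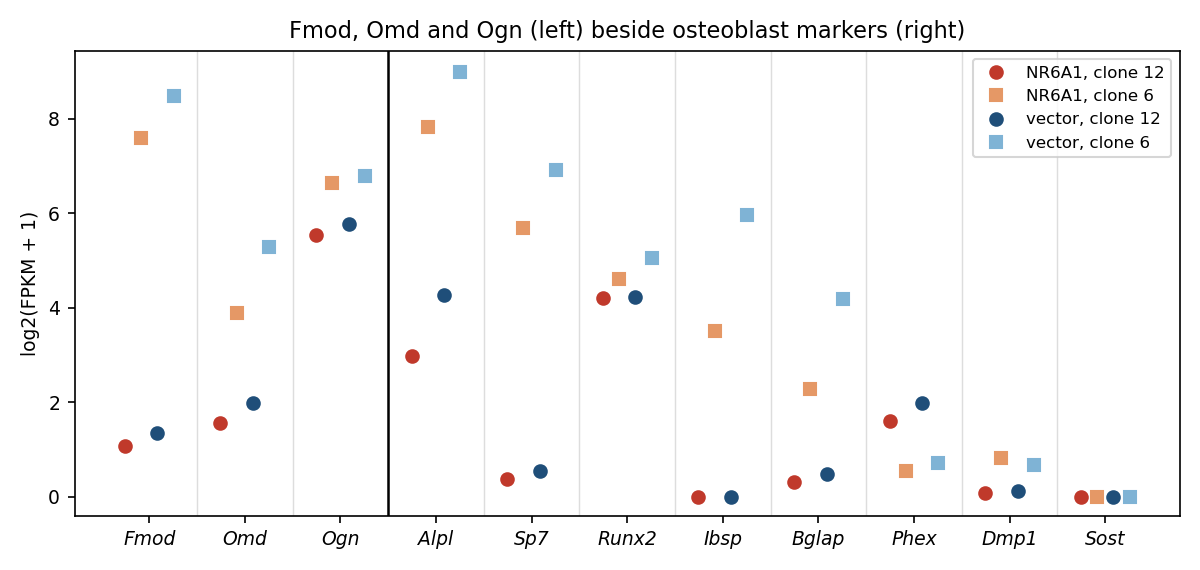
Fmod, Omd and Ogn left of the line and the 8 osteoblast markers right of it, log2(FPKM + 1), 1 point per library. Fmod, Omd, Alpl, Sp7, Ibsp and Bglap share the order of clone 6 with vector highest, clone 6 with NR6A1 next and clone 12 below, while Phex, a regulator of phosphate, is higher in clone 12.

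The tendon list of 6 genes contains Fmod itself. Scx, the tendon transcription factor, was at 41.2 and 30.6 FPKM with NR6A1 in clone 12 and clone 6, against 41.2 and 42.8 FPKM with vector. Egr1 ran opposite to Fmod between the lines, at 81.8 and 22.8 FPKM with NR6A1 against 94.3 and 12.3 FPKM with vector. In the list, 1 gene was higher and 3, Fmod among them, were lower in clone 12 with both viruses. Over all genes averaging 1 FPKM or more the shares were 43.9% and 35.9%. The list was not filtered so, and Thbs4, among the 3, was at most at 0.0157 FPKM. Tnmd and Thbs4 were below 1 FPKM throughout. The 10 chondrocyte genes summed to 7.67 and 14.3 FPKM with NR6A1, against 7.75 and 10.5 FPKM with vector, with Col9a1 at 0 in every library. Of the cornea list, 3 of 4 were below 1 FPKM throughout, and Aldh3a1, an aldehyde dehydrogenase gene, was at 19.1 and 6.35 FPKM with NR6A1 against 21.3 and 3.63 FPKM with vector.

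Relatives of the family outside the 10 members were mostly low. Of 9 genes, 2 passed the filter. Podnl1, a podocan-like relative, was at 40.6 and 35.2 FPKM with NR6A1 in clone 12 and clone 6, against 38.6 and 36.2 FPKM with vector. Tsku, which encodes tsukushi, an inhibitor of BMP and Wnt signals, was at 7.35 and 4.96 FPKM against 6.11 and 4.37 FPKM with vector. Neither was called by limma for NR6A1 or between the lines, against 0.0353% and 21.9% of all genes. Neither had an unadjusted p under 0.05 for NR6A1. The log2 difference of Tsku between the lines was 0.45 ± 0.10 (SE, limma adjusted p = 0.0534). Among large proteoglycans of the matrix, Hspg2, the perlecan gene, was at 83 and 81.5 FPKM with NR6A1 against 78.2 and 80.5 FPKM with vector, and Vcan, the versican gene, at 26.4 and 32.7 against 22.9 and 20.4 FPKM. Of the 10 genes in that list 2 passed the filter and neither was called for NR6A1 or between the lines, beside the same shares of all genes. Vcan had an unadjusted p under 0.05 for NR6A1, as did 8.48% of all genes.

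The enzymes that build chondroitin and dermatan sulfate, the chains of biglycan, were expressed in both lines. Of 27 genes, 23 passed the filter, with a median log2 change of 0.027 for NR6A1. With NR6A1 8 were higher in both clones (34.8%, against 28.9% of all genes) and 4 lower (17.4%, against 29.4%). None was called for NR6A1 by limma, against 0.0353% of all genes. At an unadjusted p under 0.05 there were 3, all higher, against 8.48% of all genes in both directions. Between the lines 7 of 23 were called, against 21.9% of all genes. The gene Ugdh, whose enzyme makes UDP-glucuronate for the chains, was higher in clone 12, at 129 and 98.6 FPKM with NR6A1 in clone 12 and clone 6 and 139 and 84.5 FPKM with vector. The other 6, Xylt2, B4galt7, Chsy1, Chst12, Chst14 and Dse, were lower in clone 12. They span the chain's start (Xylt2, B4galt7), its elongation (Chsy1) and the steps that sulfate it or turn it to dermatan sulfate (Chst12, Chst14, Dse). The linker and sulfate supply genes B3gat3, Papss1 and Slc35b2 were at 37.7 to 52.7 FPKM over the 4 libraries and were not called in either comparison.

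Keratan sulfate, the chain of fibromodulin and osteomodulin, is built by a smaller set of enzymes. Of 9 genes, 6 passed the filter, with a median log2 change of 0.077 for NR6A1. None was called, against 0.0353% of all genes, and 1, Chst2, had an unadjusted p under 0.05, against 8.48%. Between the lines 3 of 6 were called, against 21.9% of all genes, Chst1 and B3gnt2 higher and Chst2 lower in clone 12. Chst1 encodes the enzyme that sulfates the galactose of keratan sulfate. It was at 11.5 and 0.876 FPKM with NR6A1 in clone 12 and clone 6, and 25.4 and 1.06 FPKM with vector. The log2 difference between clones was 3.21 ± 0.26 (SE). In clone 6 Chst1 lay near the filter threshold of 1 FPKM. It passed the filter mainly through clone 12, so nothing is read from its call. Chst1 was higher in the line with little Fmod, and a link between these genes was not tested. B3gnt7, Chst4 and Chst5 were below 1 FPKM in every library. B4galt1, a galactosyltransferase, was at 42.7 and 40.3 FPKM with NR6A1 against 38.5 and 37 FPKM with vector, and Fut8, which adds core fucose, at 8.33 and 8.11 against 9.9 and 8.02 FPKM.

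Of the collagens and fibril proteins that the family binds, 17 of 18 were in the table and 14 passed the filter. For NR6A1 none was called by limma, against 0.0353% of all genes, and the median log2 change was 0.03. An unadjusted p under 0.05 was found for 2 (Col3a1 and Fbn1, both higher), against 8.48% of all genes. Without short RNA genes 1 was called, Col3a1, which was higher, against 0.466% of all genes. Between the lines 10 of 14 were called, 8 lower in clone 12 (Col1a1, Col2a1, Col3a1, Col5a1, Col6a1, Col6a2, Col11a1, Col12a1) and 2 higher (Col5a3, Fbn1), beside 10.5% of all genes lower and 11.5% higher. Col2a1 was at 0.103 FPKM with NR6A1 and 0.0765 FPKM with vector in clone 12. It passed the filter through clone 6 alone, so nothing is read from its call. Col1a1, a chain of type I collagen, was at 693 and 1422 FPKM with NR6A1 in clone 12 and clone 6, and 522 and 1547 FPKM with vector. Col6a1 was at 324 and 529 FPKM with NR6A1 in clone 12 and clone 6, and 347 and 453 FPKM with vector. Col5a2 was not called, at 322 and 291 FPKM with NR6A1 and 320 and 358 FPKM with vector, and neither was Col1a2 (log2 difference -0.83 ± 0.18, SE, limma adjusted p = 0.0501).

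**Figure D5:**
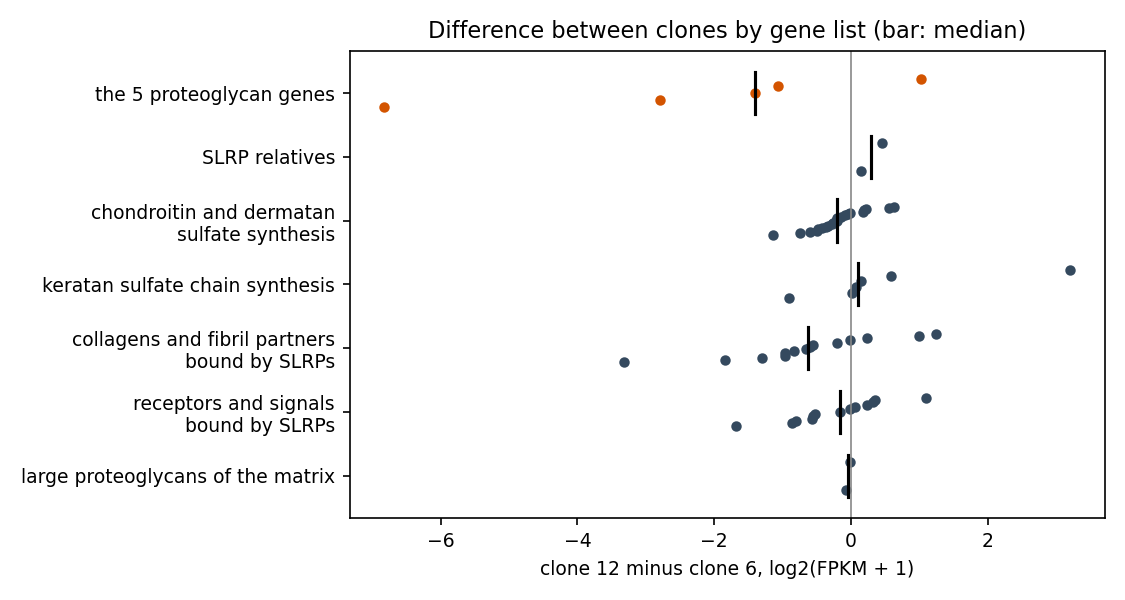
Difference between the lines (clone 12 minus clone 6, log2(FPKM + 1)) of each gene averaging 1 FPKM or more, by gene list, with a bar at the median. Fmod lies farthest left at -6.83, the collagen list has a median of -0.63, and Chst1 of the keratan sulfate list lies at 3.21.

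Of the receptors and signals that family members bind, 13 of 20 passed the filter, with a median log2 change for NR6A1 of 0.019. None was called by limma, against 0.0353% of all genes. An unadjusted p under 0.05 was found for 5, against 8.48% of all genes (Lrp1 and Tgfb3 higher, Tgfb2, Tlr2 and Tlr4 lower). Between the lines 6 of 13 were called, against 21.9% of all genes, Met higher and Bmp4, Lrp1, Tgfb1, Ctgf and Igf1r lower in clone 12. Bmp4, a bone-inducing signal that biglycan binds, was at 40.8 and 131 FPKM with NR6A1 in clone 12 and clone 6, and 38.7 and 128 FPKM with vector (log2 difference -1.68 ± 0.07, SE, limma adjusted p = 0.00729). Lrp1, an endocytic receptor of decorin, was at 97.7 and 181 FPKM with NR6A1 and 73.9 and 133 FPKM with vector. Tgfb1, a ligand that decorin, biglycan and asporin hold in the matrix, was at 44.7 and 60.7 FPKM with NR6A1 and 42.1 and 69.8 FPKM with vector. Ctgf, a matrix signal, was at 47.6 and 71.7 FPKM with NR6A1 and 38.9 and 80.9 FPKM with vector.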

How the data were processed

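Polyadenylated RNA was column-purified and DNase-treated before a standard Illumina library, per the labels' protocols. The authors deposited 1 FPKM value per gene and library. The submitters' processing notes name TopHat 1.2.0 and Cufflinks 1.0.3 and, as the build, mm9. Annotation and strand setting: not given in the sources used here. The deposited table holds no read counts. Depth was estimated from 1823 genes with 1 transcript length of at least 1500 bases, as the best of many trial depths and length shifts. At that best setting, under 10 inferred reads, 50.1% to 53.5% of values were whole to within 0.1 read. Chance gives 20% at 1 fixed setting, and the share that chance gives at a best setting was not estimated. Because many values were not whole, no count test was run.

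Values were analysed as log2(FPKM + 1), which understates changes of low genes, for 11346 genes averaging 1 FPKM or more, with limma 3.58.1 in R 4.3.3 (variance trend, virus and clone as terms, 1 residual degree of freedom, Benjamini-Hochberg at 0.05, two-sided). The block follows the labels, by which both viruses went into each line. Clone differences with NR6A1 and with vector correlated across genes with r = 0.628 (0.874 without the 198 tested short RNA genes, those of microRNAs and of small nuclear, nucleolar and Cajal body RNAs). The fit was tested on simulated data. P-values for NR6A1 measure how alike the 2 lines behaved. Those between the lines measure how alike the line difference was with the 2 viruses. Neither kind measures repeat cultures. Members and lists were chosen with earlier results of these data known. Named were Nr6a1, all members, in each list genes called for NR6A1 and up to 4 others of highest mean, in marker lists up to 3 of highest mean, and the 5 nearest patterns to Fmod. Other genes were named after their values were seen. Alternatives were other pseudocounts, filters, scalings and priors, no short RNA genes, no block and each library left out.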

Additional observations from a re-analysis of the deposited data

How the results depend on the processing

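For NR6A1 against vector, limma called 4 genes, 7 with a pseudocount of 5, 2 with no filter, 52 without short RNA genes and 38 with a robust prior. Leaving out any 1 library gave 0 in each fit (97 to 300 at an unadjusted p under 0.05). With no replicate block the count was 4, and no call of a member changed, since none was called under either fit. Between clone 12 and clone 6 it called 2490 genes, 0 with no filter, 1581 with no variance trend, and 45 to 1081 with 1 library left out. The median change of the 5 expressed members was -0.19 and ran from -0.74 to 0.74 with 1 library left out.

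With all 4 libraries, the 5 expressed members kept their direction in both comparisons under the 10 alternatives. The change with NR6A1 ran from -0.68 to -0.49 for Fmod, -1.01 to -0.69 for Omd, -0.19 to -0.18 for Ogn, 0.51 to 0.55 for Bgn and 0.73 to 1.64 for Aspn, the wider ranges coming with the pseudocount. With 1 library left out, in fits without the clone block, Fmod ran from -4.15 to 2.98, Omd from -2.55 to 0.74, Ogn from -0.74 to 0.37, Bgn from -0.18 to 1.29 and Aspn from 0.21 to 2.37. The difference between the lines kept its sign for all 5 in those fits. Bgn was called between the lines with a pseudocount of 0.1 and without short RNA genes, and Aspn without short RNA genes. Nothing is read from these calls, since the members were chosen with these values known. Depth limits Dcn, Lum and Epyc, whose values stand for at most about 18.7 reads.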

Other observations

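Tgfb2, chosen for its values, stood at 4.42 and 3.36 FPKM in the NR6A1 libraries of clone 12 and clone 6, against 10.4 and 16.8 FPKM with vector, a log2 change of -1.55 ± 0.26 (SE). It encodes a ligand of the family that decorin and biglycan bind. Tgfb1 was at 44.7 and 60.7 FPKM against 42.1 and 69.8 FPKM with vector. Tgfb2 was not called by limma over all genes.

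Col11a1 and Col2a1, collagen chains of cartilage chosen for their values, were lower in clone 12 than in clone 6, as Fmod was. Col11a1 was at 2.4 and 19.8 FPKM with NR6A1 in clone 12 and clone 6, and 1.38 and 37.7 FPKM with vector. Col2a1 was at 0.103 and 2.22 FPKM with NR6A1 in clone 12 and clone 6, and 0.0765 and 3.7 FPKM with vector. With NR6A1 Col11a1 was lower in clone 6 (-0.89 log2 units) and higher in clone 12 (0.51), a difference that was not tested.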
